A study of Mus musculus with 24 samples.

Results

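Colorectal tumours of mice lacking Axin1 in the intestinal epithelium were compared with colon of untreated mice of the same genotype. The comparison rests on 6 of the 24 libraries of the series, 3 from tumours (labelled TUM_KO) and 3 from untreated colon (labelled Water_KO), chosen by their labels alone. All mice were C57BL/6. Both groups carry the same knockout (KO), a deletion of Axin1 that the series title places in intestinal epithelial cells, so cells of other kinds keep the gene. The tumours came from mice given AOM/DSS, in which azoxymethane, a carcinogen, is combined with dextran sulfate sodium, a polymer in the drinking water that injures the colon lining. The untreated mice drank water and are labelled as free of disease. KO colon at day 7 of DSS, without azoxymethane, gave 3 more libraries, and wild type (WT) tumours and untreated WT colon gave 3 each. The labels give neither age nor sex, the promoter driving the Cre, or when the tumours were taken. Tissue, azoxymethane, DSS and time since treatment differ together between the tumours and the untreated colon, so their shares in any difference cannot be told apart.

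Axin1 is a scaffold of the destruction complex, which together with APC and the kinases GSK3 and CK1 marks β-catenin for degradation. When Wnt ligands bind Frizzled and LRP receptors the complex is held back, β-catenin enters the nucleus, and with TCF/LEF factors it switches on target genes. Many of these targets, among them Axin2, Nkd1, Notum and Znrf3, are themselves brakes on the pathway. In the colon, Wnt signalling maintains the stem cells at the crypt base, and AOM/DSS tumours of mice are known for activating mutations of the β-catenin gene.

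The 6 libraries held between 22687023 and 28066996 expected counts over 23694 to 24662 detected genes. Mitochondrial genes took 2.97% to 3.54% of the counts in the tumours and 6% to 6.53% in untreated colon. The first principal component (71.7% of the variance) separated the groups and the second (14.5%) set untreated replicate 3 apart. Levels are given in CPM, counts scaled to library size after edgeR's TMM adjustment, on the usual per-million scale. Among 11437 genes averaging at least 5 CPM in untreated colon, untreated replicate 3 lay over 4-fold above both other replicates for 241. It lay over 4-fold below both for 145, against at most 8 above and 17 below for either of the others. Genes that follow position along the gut were among them (these examples were chosen after their values were seen). Hoxb13, a marker of the distal colon, read 569, 568 and 2.64 CPM in untreated replicates 1, 2 and 3, and Fabp2, a fatty acid binding protein of absorptive cells, read 10.4, 5.61 and 749 CPM. Tumour replicate 2 alone held Krt5, a basal keratin of squamous epithelium, at 207 CPM against 0 in both other tumours. Tumour replicate 3 held Xist at 570 CPM and no Ddx3y, while the other 5 libraries held Ddx3y at 31.4 to 37.4 CPM and Xist at no more than 0.324 CPM. For KO tumours against untreated KO colon, a gene reported here that lost its call or its direction without 1 of these libraries is given with and without it. The same was done where its log2 difference moved by over 1.5 times. Counts of gene lists with a library left out are given for some lists only. The part of gut position, sex or sampling in any difference was not tested.

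**Figure D1:**
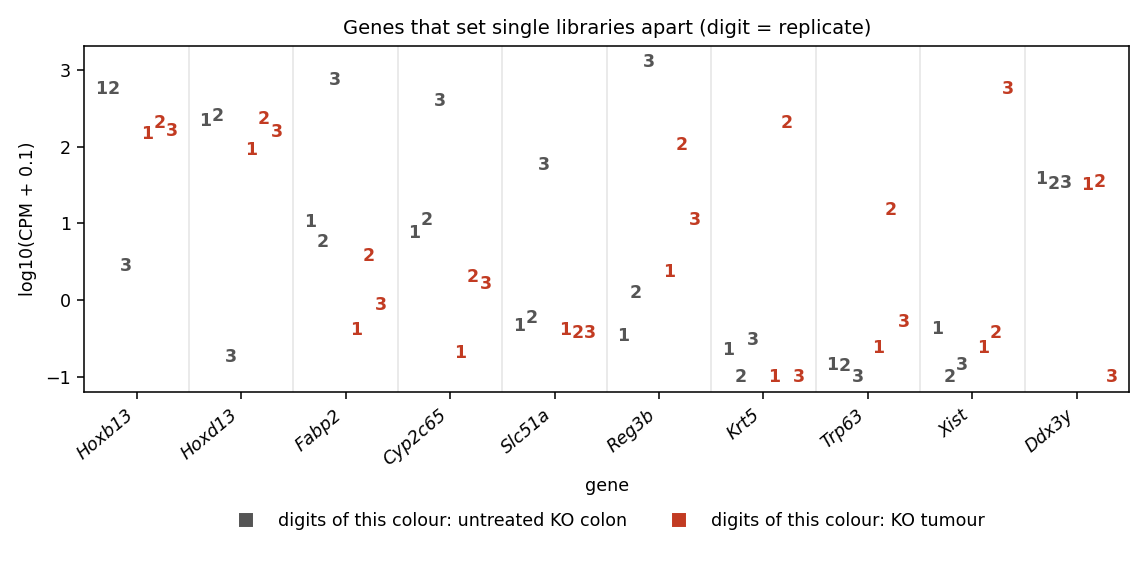
Expression of 10 genes in the 6 libraries, with log10 of CPM plus 0.1 on the vertical axis; each digit is a replicate number, grey for untreated KO colon and red for KO tumours. Untreated replicate 3 stands apart for Hoxb13 (2.64 CPM against 569 and 568) and Fabp2 (749 against 10.4 and 5.61), tumour replicate 2 for Krt5 (207 against 0 and 0), and tumour replicate 3 for Xist and Ddx3y.

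Axin1 itself (chr17:26138688-26195811, plus strand, GRCm38) checks the genotype labels. It read 18.6, 17.7 and 15.3 CPM in untreated KO colon and 17.5, 19.7 and 17.1 CPM in the KO tumours, and the groups overlapped. The KO tumours (18.1 ± 1.41 CPM, SD, n = 3) held 33% of the level of WT tumours (54.9 ± 4.46 CPM, n = 3). Untreated KO colon (17.2 ± 1.72 CPM, n = 3) held 33.2% of the level of untreated WT colon (51.8 ± 3.18 CPM, n = 3). In both settings the highest KO library lay below the lowest WT library (exact permutation test, two-sided p = 0.1, the smallest that 3 against 3 allows). Tumours against untreated KO colon differed by 0.08 ± 0.11 on the log2 scale (± SE here and below), which did not pass the test (edgeR adjusted p = 0.596). Scaled to epithelial genes instead of all genes, the same difference was 0.80 (adjusted p = 0.00649). The median over all genes under that scaling was 0.77, with 49.0% called higher, so Axin1 moved about as much as the middle gene.

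Expression differed between tumours and untreated colon across much of the genome. Of 19056 genes tested with edgeR's quasi-likelihood test, 9501 (49.9%) passed a Benjamini-Hochberg adjusted p under 0.05, 5028 (26.4%) higher and 4473 (23.5%) lower in the tumours. Changes of at least 4-fold were found among 1454 of the higher and 1383 of the lower genes, and of at least 16-fold among 530 and 375. The median difference over all genes was 0.04. Of 10 keratin, cadherin and other genes common to all epithelial cells, 5 were lower and 1 higher (median -0.46), and their summed level was 13075, 12645 and 14225 CPM in untreated colon against 5768, 10229 and 9416 CPM in the tumours. When libraries were scaled to these epithelial genes the calls became 9328 higher (49.0%) and 1726 lower (9.06%), with the median of all genes 0.73 further up on the log2 scale. Changes scaled in that way are relative to that shift. In whole tissue, fewer cells of a type and less RNA per cell cannot be told apart. The number of genes called in a group below is to be read against 26.4% higher and 23.5% lower over all genes. Counts scaled to epithelial genes are to be read against 49.0% higher and 9.06% lower, and their medians against 0.77.

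Targets of the Wnt pathway were higher in the tumours almost throughout: 23 of 24 tested passed as higher and 1 as lower, with a median log2 difference of 3.63 against 0.04 over all genes. Several inhibitors of the pathway are on this list. Notum (chr11:120653788-120661175, minus strand), a secreted enzyme that strips Wnt proteins of their lipid, read 0.202, 0.299 and 0.16 CPM in untreated colon and 282, 193 and 287 CPM in the tumours, a log2 difference of 10.13 ± 0.51 (edgeR adjusted p = 9.94e-10). Its antisense neighbour Notumos (chr11:120659157-120661815) moved with it, from at most 0.0404 to between 32.8 and 51.8 CPM (11.10 ± 0.86). The genes overlap and strand use, not given in the sources used here, decides how their reads are counted, so reads of the pair cannot be told apart. Axin2, the inducible relative of Axin1, read 27.6, 33.4 and 34.1 CPM and then 423, 353 and 417 CPM (3.65 ± 0.26, adjusted p = 5.26e-08). Nkd1, an inhibitor acting on Dishevelled, went from 9.79, 11.1 and 10.7 to 668, 398 and 729 CPM (5.83 ± 0.57). Wif1, which binds Wnt outside the cell, went from 0.93, 1.5 and 1.36 to 166, 264 and 546 CPM (8.0 ± 0.65), and Dkk2, a ligand of LRP co-receptors, from 0.566, 0.524 and 0.801 to 139, 79.8 and 128 CPM (7.51 ± 0.58). In each of these genes the lowest tumour lay many fold above the highest untreated library. Nkd2, the relative of Nkd1, was the exception, at 7.28, 7.41 and 8.37 CPM in untreated colon and 2.77, 2.55 and 0.876 CPM in the tumours (-1.89 ± 0.48, adjusted p = 0.00303), and scaled to epithelial genes it did not pass (-1.08, adjusted p = 0.0801).

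Transcription factors of the pathway were also higher. Prox1, a homeodomain factor, read 2.55, 2.21 and 3.85 CPM and then 344, 289 and 419.6 CPM (6.94 ± 0.36, adjusted p = 9.94e-10). Sox4 went from 22.7, 26.5 and 40.9 to 402, 339 and 354 CPM (3.61 ± 0.33). The TCF/LEF factors Lef1 (5.47 ± 0.57) and Tcf7 (3.88 ± 0.35) were higher, whereas Tcf7l2 was lower, at 43.5, 68.7 and 55.1 CPM against 146, 121 and 92.1 CPM (-1.10 ± 0.19, adjusted p = 0.000121). Scaled to epithelial genes, Tcf7l2 did not pass (-0.43, adjusted p = 0.0684). The cell growth regulators Myc (1.99 ± 0.28) and Ccnd1 (1.80 ± 0.25) lay below the median of the list, as did the receptor Ephb2 (0.82 ± 0.15), which positions cells along the crypt. Compared per transcript length (TPM, the per-million unit that also accounts for transcript length), the most abundant targets in the tumours were Nkd1 at 504 ± 169.6 TPM, Notum at 327 ± 88, Wif1 at 297 ± 176 and Axin2 at 226 ± 31.7 (SD, n = 3). In untreated colon the order of the list was led by Ccnd1 at 25.7 ± 4.56 TPM and Rnf43, a ubiquitin ligase that removes Frizzled, at 20.7 ± 4.83 TPM.

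**Figure D2:**
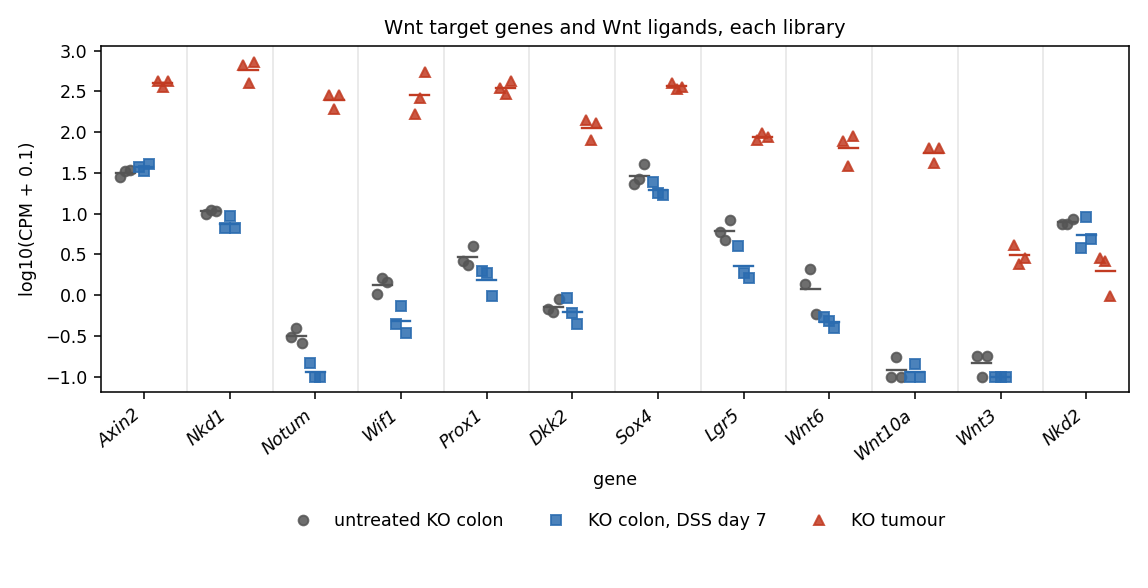
Log10 of CPM plus 0.1 for 12 genes of the Wnt pathway in untreated KO colon (grey circles), KO colon at DSS day 7 (blue squares) and KO tumours (red triangles), 3 libraries each, with lines at the mean of the log values. For 11 genes the tumours lie above both other groups; Nkd2 is lower in the tumours than in untreated colon.

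The sequence CTTTGAT, the core bound by TCF/LEF factors, was searched on both strands of the window from 250 bases before to 50 after each RefSeq start (GRCm38.p6). It was found in 2 of 24 windows of Wnt target genes (8.33%; 2 of the 17 genes with a window) and in 1225 of 32851 windows of all genes (3.73%). Among matrix protease genes, described below, 2 of 18 windows held it (11.1%, 1 of 16 genes). The Wnt target windows that hold it belong to Sp5, a zinc finger factor, at chr2:70474673-70474972 (plus strand), and to Tnfrsf19. Tnfrsf19, a receptor of the tumour necrosis factor family, has its window at chr14:61037938-61038237 (minus strand), a start inside the annotated gene (chr14:60963875-61046490). These 2 windows are shown because they belong to the pathway targets with the motif next to the start. They are written along the gene's own strand, with the match in capitals.
Sp5: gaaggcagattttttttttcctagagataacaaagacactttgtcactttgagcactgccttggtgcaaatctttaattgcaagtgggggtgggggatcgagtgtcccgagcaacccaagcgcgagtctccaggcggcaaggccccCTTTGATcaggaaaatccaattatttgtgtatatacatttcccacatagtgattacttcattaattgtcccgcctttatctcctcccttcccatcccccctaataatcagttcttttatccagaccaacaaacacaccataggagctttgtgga
Tnfrsf19: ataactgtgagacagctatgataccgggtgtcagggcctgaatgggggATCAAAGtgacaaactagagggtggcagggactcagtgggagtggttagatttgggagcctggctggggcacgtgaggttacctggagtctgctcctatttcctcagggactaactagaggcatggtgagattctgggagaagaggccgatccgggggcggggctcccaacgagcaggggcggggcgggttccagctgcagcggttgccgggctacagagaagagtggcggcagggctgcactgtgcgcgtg
In Sp5 the match begins 104 bases before the start. In Tnfrsf19 it begins 202 bases before and lies on the opposite strand, so that it reads ATCAAAG. Sp5 read 0.162, 0.0748 and 0.401 CPM in untreated colon and 88.3, 40 and 66.2 CPM in the tumours (8.23 ± 0.82, adjusted p = 1.71e-06). Tnfrsf19 read 2.87, 3.26 and 4.49 CPM and then 72.6, 45.5 and 79.2 CPM (4.21 ± 0.64). Both were higher in every tumour, and so were 21 targets without these letters in the window searched or with no window in the table; the match describes a sequence, not a bound site.

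The proteins that carry the Wnt signal moved less than its targets. Of 19 tested, 9 were higher and 3 lower (median 0.31), and without tumour replicate 1, 5 were higher. Apc did not pass (144, 105 and 143 CPM against 89.9, 114 and 97.4, adjusted p = 0.0886) except without untreated replicate 2 (-0.51, adjusted p = 0.0364). Ctnnb1, which encodes β-catenin, was higher at 1224, 1224 and 1347 CPM against 831, 781 and 1107 CPM (0.48 ± 0.13, adjusted p = 0.00453). The co-receptor genes split, Lrp5 higher (0.86 ± 0.15) and Lrp6 lower (-0.96 ± 0.16). The tankyrase Tnks2, which marks Axin proteins for degradation, was higher (0.70 ± 0.11). Scaled to epithelial genes, 15 of this list were higher and 1 lower, Lrp6 not passing (-0.24, adjusted p = 0.373).

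Ligands and receptors were divided, with 9 of 27 tested higher and 6 lower (median 0.07). The ligands Wnt6 and Wnt10a accounted for the widest changes. Wnt6 read 1.25, 1.98 and 0.481 CPM in untreated colon and 76.7, 38.3 and 89.5 CPM in the tumours (5.77 ± 0.52, adjusted p = 4.02e-07). Wnt10a had 2 counts over the 3 untreated libraries and 4613 over the tumours, a ratio of depth-scaled sums of 2157 (exact 95% interval 597 to 17816, covering counting error only). Wnt3, a ligand of the crypt base, was absent or at most 0.0809 CPM in untreated colon and at 4.06, 2.32 and 2.78 CPM in the tumours (5.72 ± 0.77), and Wnt5a was higher as well (2.25 ± 0.35). Rspo3, a ligand that strengthens Wnt signalling and comes from stromal cells, was lower at 0.575, 0.812 and 0.457 CPM against 4.65, 5.16 and 2.64 (-2.75 ± 0.61). Fzd10 (5.30 ± 1.04) was higher, while the Frizzled receptors Fzd5 (-2.0 ± 0.36) and Fzd8 (-1.63 ± 0.20) were lower. Per length, Wnt6 (67.6 ± 27 TPM) and Wnt10a (42.2 ± 10.9 TPM) were the most abundant Wnt ligand genes of the list in the tumours, with ranges that overlapped (37.1 to 88.1 and 29.6 to 49.6 TPM).

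Genes of crypt stem cells were mostly higher, 11 of 16 with 2 lower (median 1.17). Lgr5, the receptor for R-spondins that marks these cells, went from 5.86, 4.64 and 8.21 to 79.4, 98.3 and 87.3 CPM (3.82 ± 0.62, adjusted p = 7.18e-05). Mex3a, an RNA-binding protein of slowly cycling Lgr5 cells, went from 2.43, 2.96 and 2.68 to 114, 75.3 and 90.3 CPM (5.11 ± 0.42), and Smoc2, a matrix protein, from about 23 to between 139 and 199.6 CPM (2.87 ± 0.36). Sox9 differed less (1.10 ± 0.21). Lrig1, a membrane brake on growth factor receptors, was lower (-0.66 ± 0.21, adjusted p = 0.0161), but not without tumour replicate 3 (-0.46, adjusted p = 0.0962) or when scaled to epithelial genes (0.08, adjusted p = 0.819). Genes of fetal gut and of epithelium regenerating after injury were higher for 14 of 17, none lower (median 2.08). Without untreated replicate 3, 12 were higher and 1 lower (median 2.37), with the same counts without tumour replicate 2 (median 2.24). Krt23, a keratin, read 5.78, 6.21 and 5.69 CPM in untreated colon and 108, 74.4 and 126 CPM in the tumours (4.12 ± 0.35, adjusted p = 2.32e-07). The secreted chaperone Clu (2.79 ± 0.62) and Krt7 (1.98 ± 0.28) were also higher. Ly6a, the gene for Sca-1, read 289, 167 and 283 CPM against 308, 533 and 471 CPM (0.83 ± 0.33, adjusted p = 0.043), and missed the threshold in 5 of 6 fits that left out 1 library (0.61 to 1.03, adjusted p up to 0.172).

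Genes of proliferation and of ribosome production were higher as well. Among 30 cell cycle genes, 27 were higher and 1 lower (median 1.64). With 1 library left out, 21 to 28 were higher (median 1.53 to 2.07). The number was 21 without untreated replicate 1 and also without untreated replicate 2. Mcm7, part of the replicative helicase, read 33.4, 34.7 and 30.5 CPM and then 114, 91.1 and 104 CPM (1.65 ± 0.19, adjusted p = 3.85e-06), and Cdk4 went from 78.5, 91 and 78.5 to 313, 229.7 and 279 CPM (1.73 ± 0.18). Mki67, the proliferation marker, read 31.9, 44.4 and 199 CPM in untreated colon and 306, 281 and 231 CPM in the tumours (1.57 ± 0.53, adjusted p = 0.0202), so that the untreated group was spread by replicate 3. With 1 library left out its difference ranged from 1.16 to 2.83, the latter without untreated replicate 3, and 3 of 6 fits lost the call (adjusted p up to 0.0891). Cdkn2a, a cell cycle inhibitor, was at most 0.121 CPM in untreated colon and at 6.59, 5.95 and 3.24 CPM in the tumours (6.21 ± 1.11). The inhibitor Cdkn1a was lower (-0.75 ± 0.26, adjusted p = 0.022), but not in 3 of 6 fits with 1 library left out (adjusted p up to 0.0853) or when scaled to epithelial genes (-0.05, adjusted p = 0.871). Ribosome production genes were higher for 20 of 22, none lower (median 0.98), with the nucleolar proteins Nop56 at 1.68 ± 0.18 and Ncl at 0.99 ± 0.13.

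Genes of mature absorptive cells were lower as a group, 27 of 30 with none higher (median -3.12). Car4, a carbonic anhydrase of the surface epithelium, read 1039, 648 and 545 CPM in untreated colon and 4.12, 10.6 and 4.42 CPM in the tumours (-6.87 ± 0.70, adjusted p = 1.17e-06). Slc26a3, the chloride and bicarbonate exchanger, read 1299, 959 and 662 CPM and then 2.2, 15 and 1.9 CPM (-7.26 ± 1.36, adjusted p = 0.000271), and Aqp8, a water channel, 253, 129.6 and 266 CPM and then 0.575, 2.4 and 0.457 CPM (-7.57 ± 1.33). In all these genes tumour replicate 2 was the highest of the tumours and still far below every untreated library. Slc16a1, which takes up butyrate, was lower with little spread (420.2, 428 and 432 CPM against 65.8, 107 and 61.9, -2.45 ± 0.33). Guca2a, the hormone guanylin, read 79.1, 62.6 and 1435 CPM against 11.7, 35.3 and 23.2 CPM, and its call (-4.49 ± 1.14, adjusted p = 0.00338) was lost without untreated replicate 3 (-1.60, adjusted p = 0.126). Leaving out that library left 23 of the 30 lower and 1 higher (median -2.41).

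Fat oxidation and detoxification genes were lower too. Of 20 genes for fatty acid oxidation and ketone production, 19 were lower and none higher (median -1.60), among them Cpt1a, which admits fatty acids to mitochondria (250.1, 270 and 376 CPM against 75, 117 and 93.2, -1.65 ± 0.18), and Acaa2 (-1.93 ± 0.19). Without untreated replicate 3, 15 of the 20 were lower and 1 higher (median -1.29). For 19 detoxification genes the counts were 14 lower and none higher (median -3.27, and -2.30 without untreated replicate 3), with the sulfotransferase Sult1a1 at 221, 209 and 302 CPM in untreated colon and 7.47, 10.9 and 2.17 CPM in the tumours (-5.15 ± 0.75).

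Secretory lineages were lower with 1 exception, the Paneth cell genes. Goblet cell genes were lower for 13 of 19 and higher for none (median -2.41), and without untreated replicate 3 lower for 10 and higher for 1 (median -1.5). Clca1, a secreted mucus protease, read 3765, 2757 and 2098 CPM and then 148, 184 and 328 CPM (-3.71 ± 0.64, adjusted p = 0.000131), and Zg16, a lectin of the mucus, 1941, 1379.6 and 2189 CPM and then 76.3, 142 and 75.6 CPM (-4.23 ± 0.87). Atoh1, the factor that specifies secretory cells, was lower (-2.51 ± 0.45). Muc2, the mucin that builds the mucus layer, read 1476, 1189 and 10727 CPM against 149, 698 and 611 CPM (-3.20 ± 0.85, adjusted p = 0.00455), and did not pass without untreated replicate 3 (-1.46, adjusted p = 0.0987). Spink4, a protease inhibitor of goblet cells, did not pass (0.41) and was the most abundant of the list in the tumours at 1609.7 ± 988 TPM. Enteroendocrine genes were lower for 13 of 15 and higher for none (median -2.88), as in Chga, a protein of hormone granules, at 48.2, 46.1 and 47 CPM against 3.11, 5.84 and 3.2 CPM (-3.54 ± 0.51), and the L cell peptide Insl5 at 45, 31 and 5.41 CPM against 0.338, 1.78 and 0.229 CPM (-5.13 ± 0.97). Without untreated replicate 3, 12 enteroendocrine genes were lower and 1 higher (median -2.78). Tuft cell genes were lower for 6 of 10, though for 2 without untreated replicate 3. Avil, an actin regulator on the tuft cell list, went the other way, at 1.94, 1.61 and 5.93 CPM in untreated colon and 193, 85.8 and 116 CPM in the tumours (5.38 ± 0.70, adjusted p = 9.94e-06), while the tuft cell ion channel Trpm5 (-3.28 ± 0.90) and factor Pou2f3 (-3.03 ± 0.88) were lower, neither without that library (adjusted p = 0.0512 and 0.0774).

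Paneth cells secrete antimicrobial proteins at the crypt base of the small intestine and are rare in healthy mouse colon. On a list of 10 genes of Paneth and deep crypt secretory cells, 7 were higher and 1 lower (median 6.88), and the summed level was 249, 239.8 and 528 CPM in untreated colon and 1783, 1849 and 2403 CPM in the tumours. Lyz1, the Paneth lysozyme, read 3.32, 7.67 and 0.841 CPM and then 809, 930.2 and 1088 CPM (7.89 ± 0.70, adjusted p = 3.94e-07). The phospholipase gene Pla2g2a went from 1.7, 0.449 and 3.29 to 254, 214 and 348 CPM (7.23 ± 0.96). The α-defensin gene Defa24 went from at most 0.486 CPM to 45.5, 71.7 and 92.3 CPM (8.27 ± 1.03), and the lectin gene Itln1 from at most 2.64 to 159.6, 108 and 136 CPM (6.53 ± 0.87). α-Defensin genes are near-identical copies, and how RSEM divides reads among them makes the value of any one of them uncertain. Kit, a receptor gene on this list, was lower at 10.3, 12.7 and 12.3 CPM against 34, 29.5 and 71.8 CPM (-1.94 ± 0.43). Which cells of the whole tissue its reads came from was not tested. Reg4, a marker of deep crypt secretory cells, did not pass (0.62 ± 0.75). Per length, Lyz1 stood at 1479 ± 183 TPM in the tumours, above the most abundant Wnt target.

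**Figure D3:**
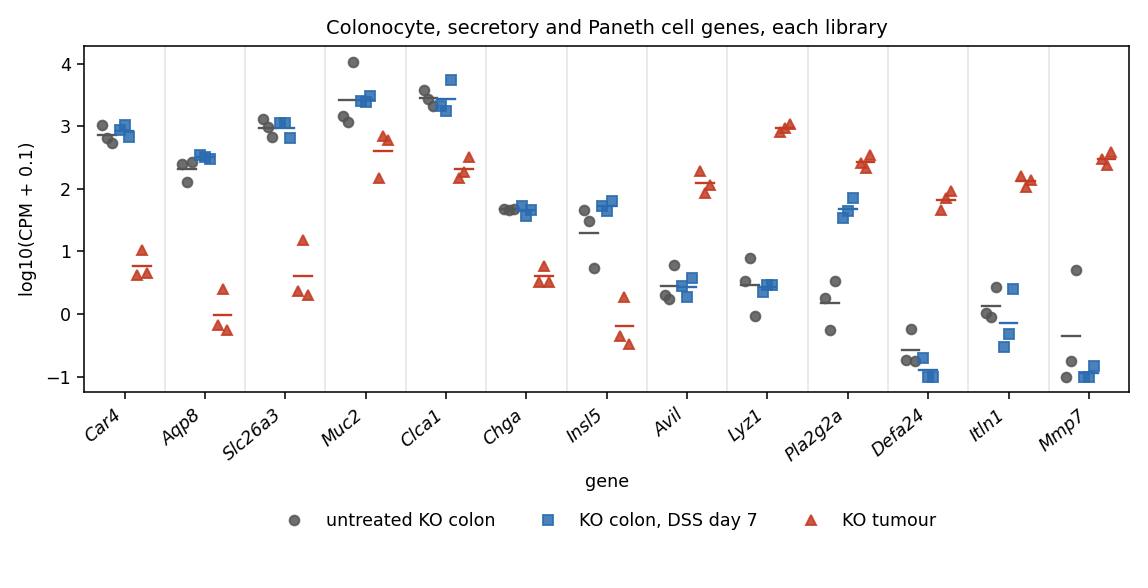
Log10 of CPM plus 0.1 for 13 genes of epithelial lineages in untreated KO colon (grey circles), KO colon at DSS day 7 (blue squares) and KO tumours (red triangles), 3 libraries each, with lines at the mean of the log values. Genes of absorptive, goblet and enteroendocrine cells (Car4 to Insl5) are lower in the tumours, Avil and the Paneth genes from Lyz1 to Mmp7 higher.

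Factors that fix intestinal identity were lower for 9 of 24 and higher for none (median -0.40). When scaled to epithelial genes 7 were lower and 5 higher, with the median turned to 0.36. Over all genes that scaling gave 9.06% lower and 49.0% higher, with a median of 0.77. In the main scaling, 10 of the 24 were lower and 2 higher without untreated replicate 3 (median -0.59). Hnf4a, a nuclear receptor of differentiated epithelium, read 966, 919 and 999 CPM and then 211, 388 and 260.2 CPM (-1.75 ± 0.28, adjusted p = 6.02e-05). Cdx1, a homeodomain factor of the gut, was lower (298, 300.2 and 309.8 CPM against 77.1, 136 and 67.6, -1.69 ± 0.29), as was Klf4, a factor of terminal differentiation (-2.54 ± 0.41). Cdx2 passed (-4.23 ± 1.35, adjusted p = 0.0143) but not without untreated replicate 3, which held 335 CPM against 18.4 and 10.2 (-1.15, adjusted p = 0.415), nor without tumour replicate 1 (adjusted p = 0.0556). Junction genes were lower for 9 of 14 and higher for 2 (median -0.76), and when scaled to epithelial genes 3 and 2. Without tumour replicate 1 the lower ones were 5. Cldn4 was the higher claudin, at 375, 372 and 536 CPM against 83.5, 73.4 and 90.6 CPM (2.37 ± 0.37).

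Matrix-degrading enzymes and their inhibitors were higher for 20 of 23 genes and lower for none (median 3.47). Mmp7, matrilysin, which is also made by Paneth cells, was at 0, 0.0748 and 4.89 CPM in untreated colon and at 303, 238 and 389 CPM in the tumours (7.56 ± 1.0, adjusted p = 1.16e-05). The 4.89 CPM belonged to untreated replicate 3, without which the difference was 12.78. Mmp10, a stromelysin, read 0.243, 0.187 and 1.24 CPM and then 199.9, 117 and 263 CPM (8.44 ± 1.03), and Mmp13, a collagenase, 3.15, 1.16 and 3.41 CPM and then 248, 173 and 379 CPM (6.70 ± 0.95). Plat, the tissue plasminogen activator, went from 3.24, 3.7 and 3.04 to 207, 91 and 283 CPM (5.86 ± 0.67). Mmp14, a membrane-bound protease, started higher and differed less (55.2, 59.1 and 65.6 CPM against 377, 312 and 366, 2.55 ± 0.28). Mmp15 and the inhibitors Timp2 and Timp3 did not pass. Per length, Mmp7 (596 ± 150.2 TPM) led the list in the tumours and Mmp14 (263 ± 38.1 TPM) came next, whereas in untreated colon Mmp15 led at 52.6 ± 8.78 TPM.

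Several of these genes lie side by side on chromosome 9. The AP-1 motif TGANTCA, searched on both strands of the same RefSeq windows, was present in 6 of 18 windows of the protease list (33.3%; 6 of 16 genes) and in 2565 of 32851 windows of all genes (7.81%). None of the 24 windows of Wnt targets held it. The genes are Mmp13, Mmp12, Mmp3, Mmp10 and Mmp7, within 420 kilobases of chromosome 9, and Plaur, the urokinase receptor, on chromosome 7. The chromosome 9 windows, all on the plus strand, are shown because the same 7 letters recur in neighbouring genes that were all higher; the match is in capitals. They lie at chr9:7272264-7272563 (Mmp13), chr9:7347124-7347423 (Mmp12), chr9:7445572-7445871 (Mmp3), chr9:7502092-7502391 (Mmp10) and chr9:7691840-7692139 (Mmp7).
Mmp13: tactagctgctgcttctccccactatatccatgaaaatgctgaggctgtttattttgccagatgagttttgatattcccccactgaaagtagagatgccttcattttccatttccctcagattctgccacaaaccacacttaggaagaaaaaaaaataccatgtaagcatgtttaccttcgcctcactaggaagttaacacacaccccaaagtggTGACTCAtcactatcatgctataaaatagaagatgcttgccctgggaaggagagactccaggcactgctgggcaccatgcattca
Mmp12: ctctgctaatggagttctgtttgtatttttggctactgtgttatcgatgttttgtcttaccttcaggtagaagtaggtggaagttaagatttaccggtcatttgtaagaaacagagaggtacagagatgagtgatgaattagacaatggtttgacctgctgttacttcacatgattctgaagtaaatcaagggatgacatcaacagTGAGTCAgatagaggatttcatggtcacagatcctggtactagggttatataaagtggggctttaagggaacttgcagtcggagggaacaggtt
Mmp3: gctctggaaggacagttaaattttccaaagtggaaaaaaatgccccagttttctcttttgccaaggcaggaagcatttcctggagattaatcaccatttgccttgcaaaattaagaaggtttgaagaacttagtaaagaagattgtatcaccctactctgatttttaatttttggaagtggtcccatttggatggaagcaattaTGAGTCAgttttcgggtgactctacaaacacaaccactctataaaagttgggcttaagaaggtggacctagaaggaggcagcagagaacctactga
Mmp10: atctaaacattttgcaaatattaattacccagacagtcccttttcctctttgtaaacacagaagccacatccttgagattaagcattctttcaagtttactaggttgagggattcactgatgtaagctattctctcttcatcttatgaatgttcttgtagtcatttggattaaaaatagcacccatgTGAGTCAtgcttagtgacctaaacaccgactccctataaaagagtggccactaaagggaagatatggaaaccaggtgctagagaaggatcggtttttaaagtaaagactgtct
Mmp7: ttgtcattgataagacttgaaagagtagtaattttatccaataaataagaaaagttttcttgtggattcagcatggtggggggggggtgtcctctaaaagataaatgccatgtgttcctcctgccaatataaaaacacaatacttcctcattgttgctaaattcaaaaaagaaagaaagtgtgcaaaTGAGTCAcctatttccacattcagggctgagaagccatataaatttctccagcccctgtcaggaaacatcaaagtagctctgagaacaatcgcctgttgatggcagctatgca
The match begins 35, 44, 46, 63 and 63 bases before the start in these windows. It reads TGACTCA in Mmp13 and TGAGTCA, its reverse complement, in the other 4. The Mmp7 window also holds ATCAAAG, the TCF/LEF letters on the opposite strand, left in lower case. Mmp3 read 0.445, 0.786 and 0.16 CPM in untreated colon and 19, 22.6 and 55.8 CPM in the tumours (6.10 ± 1.19). Mmp12, the macrophage elastase, read 4.69, 1.98 and 0.841 CPM and then 25.5, 21.6 and 36.3 CPM (3.47 ± 0.56). Binding of any factor at these letters was not measured.

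Inflammatory signals were higher: 23 of 35 cytokines and chemokines passed as higher and 1 as lower (median 3.84). Il1b read 1.13, 0.823 and 0.441 CPM and then 60.9, 59.4 and 86.7 CPM (6.42 ± 0.86, adjusted p = 1.30e-05). The neutrophil attractant Cxcl2 went from at most 0.202 CPM to 35.1, 49.7 and 67.8 CPM (9.03 ± 1.41), and Cxcl5 from 3.88, 5.57 and 0.16 to 110.1, 143 and 244 CPM (5.69 ± 1.08). Il11, a cytokine of the interleukin 6 family, went from at most 0.337 to 27.6, 13.1 and 35.2 CPM (6.64 ± 1.12), and Il23a from at most 0.486 to 28.9, 10.4 and 21 CPM (5.82 ± 0.70). Il6 itself reached only 0.777, 1.24 and 3.09 CPM. Cxcl12 was the lower one (48.1, 58.5 and 37.5 CPM against 16.6, 25.1 and 13.4, -1.39 ± 0.41), and did not pass when scaled to epithelial genes (adjusted p = 0.208). Ptgs2, the inducible cyclooxygenase, was higher (2.55, 2.17 and 7.49 CPM against 48.2, 25.7 and 78.7, 3.64 ± 0.81), while Hpgd, which breaks prostaglandins down, was lower (170.3, 166 and 329 CPM against 11.6, 38.4 and 14.1, -3.38 ± 0.45). Over all 16 prostaglandin genes 4 were higher and 5 lower.

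Neutrophil genes were higher for 13 of 14 (median 7.16, or 6.29 with genes without counts in untreated colon set to their lower bound). S100a8, a subunit of calprotectin, had 3 counts over the untreated libraries and 3960 over the tumours (ratio 1234, exact 95% interval 422 to 5988), and S100a9, its partner, went from at most 0.112 to 97.8, 51.5 and 90.2 CPM (9.69 ± 1.47). Cxcr2, the chemokine receptor of neutrophils, had no counts in untreated colon and was at least 191-fold higher against a floor of 3 counts over that group. Ly6g did not pass (-0.99 ± 0.65, adjusted p = 0.213) at 131, 116 and 4.65 CPM against 13.7, 48.4 and 64.2 CPM, but passed as lower without untreated replicate 3 (-1.55, adjusted p = 0.00246). Macrophage and monocyte genes were higher for 18 of 20 (median 1.75), with C1qa at 22.8, 20.9 and 16.4 CPM against 58.3, 47.9 and 63.6 CPM (1.5 ± 0.28) and Arg1, an arginase, at no more than 1.44 CPM against 32.5, 92 and 128 CPM (6.90 ± 2.04). Cd163, a scavenger receptor of resident macrophages, was lower (2.51, 2.81 and 1.2 CPM against 0.101, 0.116 and 0.114, -4.24 ± 0.72). T and NK cell genes were higher for 4 of 18 and lower for none (median 0.40), where 26.4% of all genes were higher. The 4 were Icos, Ctla4, Pdcd1 and the regulatory T cell factor Foxp3. Foxp3 and Pdcd1 lost their calls without untreated replicate 3 (adjusted p = 0.0714 and 0.0563) and without tumour replicate 3 (adjusted p = 0.0609 and 0.0654), and in the latter fit 2 genes of the list were higher. Cd3e (1.29, 1.16 and 1.8 CPM against 1.05, 1.16 and 1.14) and Cd8a did not pass. B and plasma cell genes were lower for 4 of 17 and higher for 2, but the lower ones were 8 without untreated replicate 3 and none without untreated replicate 2, tumour replicate 1 or tumour replicate 3.

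Interferon genes depended on untreated replicate 3. Of 20 type I interferon-induced genes 9 were lower and none higher (median -1.64), but without that library 2 were lower and 3 higher (median -0.09), and without tumour replicate 1, 2 or 3 the lower ones were 4, 5 and 5. Isg15 read 13.5, 5.24 and 126 CPM in untreated colon and 6.32, 9.32 and 9.41 CPM in the tumours (-2.53 ± 0.88, adjusted p = 0.0234), and -0.17 without replicate 3 (adjusted p = 0.865). Ifih1, a sensor of viral RNA, stayed lower without it (-1.34, adjusted p = 0.00448). Among 20 genes of interferon-γ response and antigen presentation only Cd74, the invariant chain, passed as higher (231, 182 and 97.7 CPM against 551, 770.3 and 296, 1.66 ± 0.62, adjusted p = 0.0327), and it lost the call in 4 of 6 fits with 1 library left out (1.31 to 1.95, adjusted p up to 0.117). Scaled to epithelial genes, 9 of the 20 were higher (median 1.09), against 49.0% of all genes (median 0.77).

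Other tissue compartments moved strongly, above all muscle. All 17 smooth muscle genes were lower (median -3.93), and their summed level was 5399, 5846 and 4988 CPM in untreated colon against 342, 477 and 364 CPM in the tumours. Des, the muscle filament desmin, read 522, 519.5 and 533 CPM and then 4.73, 16.3 and 12.4 CPM (-5.56 ± 0.49, adjusted p = 3.54e-07), and Myh11, smooth muscle myosin, 959, 1021 and 775 CPM and then 22.8, 50.4 and 33.9 CPM (-4.68 ± 0.56). Genes of enteric neurons and glia were lower for 10 of 15 and higher for 1 (median -3.77). Elavl4, an RNA-binding protein of neurons, read 1.82, 1.8 and 1.88 CPM in untreated colon and 0.101, 0 and 0.0381 CPM in the tumours (-5.10 ± 0.77, adjusted p = 4.13e-05). Ret, a receptor on that list, was higher at 4.73, 12.8 and 32.3 CPM against 4.37, 4.41 and 5.61 CPM (1.79 ± 0.61, adjusted p = 0.0208), and the call was lost in 3 of 6 fits with 1 library left out (0.86 without tumour replicate 3, adjusted p = 0.245). How much of the muscle wall was taken with each sample is not in the labels, and its part in the other differences was not tested. Fibroblast and matrix genes were higher for 16 of 27 and lower for 3 (median 1.18), with Col1a1 at 83.6, 98.8 and 104 CPM against 429, 348 and 199 CPM (1.77 ± 0.39), Inhba, a subunit of activin, at 1.29, 1.61 and 1.56 CPM against 52.8, 42.7 and 66.2 CPM (5.17 ± 0.65), and Fap lower (-2.07 ± 0.36). Endothelial genes were higher for 7 of 17, none lower (median 0.85), among them Angpt2, made by sprouting vessels (1.58, 1.87 and 1.52 CPM against 21.6, 24.7 and 18.5, 3.70 ± 0.38), but not Pecam1 (0.46 ± 0.41). Without untreated replicate 1 the number was 4, and scaled to epithelial genes 12, where 49.0% of all genes were higher.

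Squamous epithelium genes were higher for 8 of 12 (median 5.51), with summed levels of 10.4, 11.2 and 25.2 CPM in untreated colon and 99.1, 729 and 181 CPM in the tumours. Without tumour replicate 2 the number was 2 and the median 3.07, and without untreated replicate 1, 2 or 3 it was 3, 2 and 3. Krt14, a basal keratin, was found in all tumours (51.1, 150 and 74 CPM against 0.93, 0.861 and 0.401, 6.96 ± 2.24, adjusted p = 0.0148, and 0.0524 without untreated replicate 3), whereas Krt5 was in tumour replicate 2 alone and its call (9.29 ± 3.68, adjusted p = 0.043) turned to -4.38 without that library (adjusted p = 0.771). Adipocyte genes were lower for 3 of 4 tested, and no gene of the exocrine pancreas reached the level for testing.

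**Figure D4:**
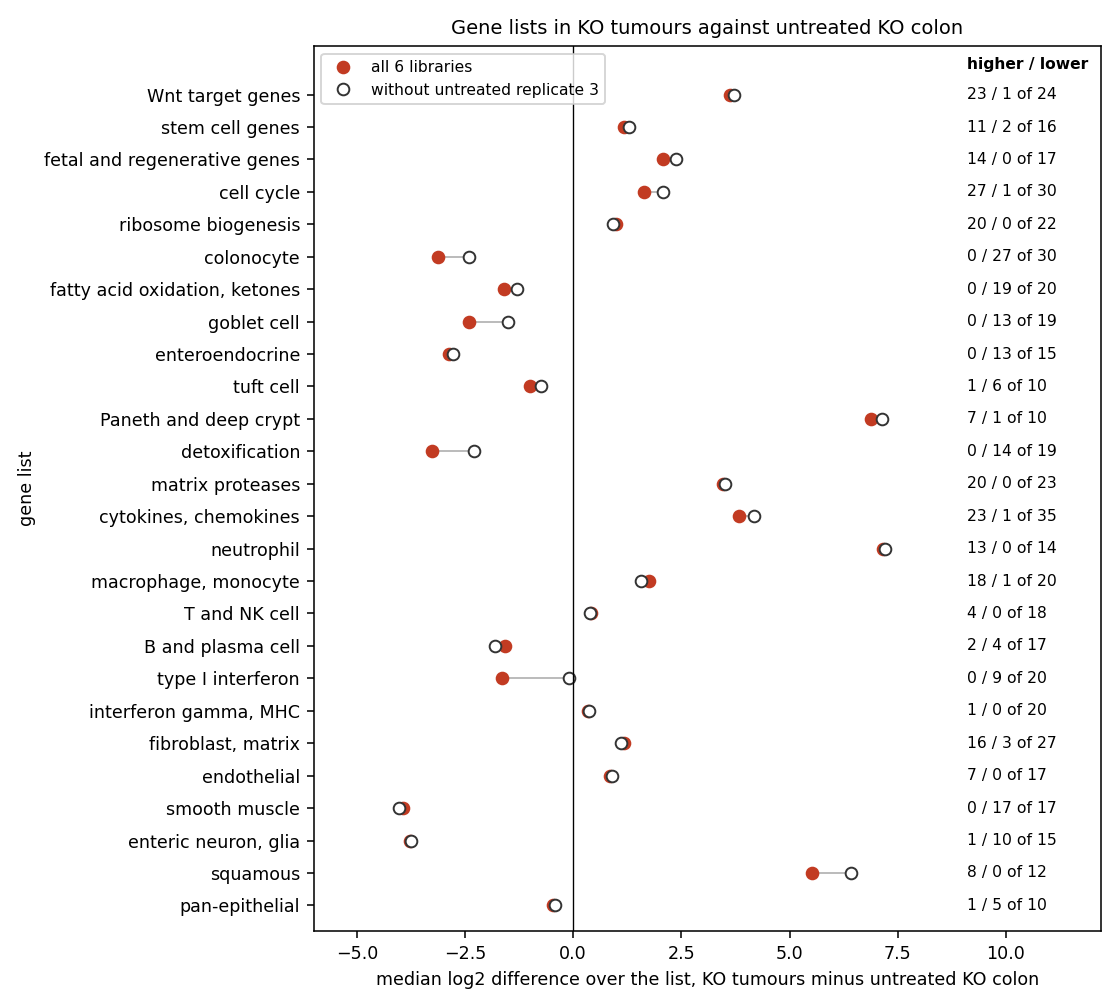
Median log2 difference between KO tumours and untreated KO colon for 26 gene lists, on the horizontal axis, with all 6 libraries (filled) and without untreated replicate 3 (open); the numbers at the right are the genes called higher and lower. The median over all genes is 0.04; Paneth, neutrophil and squamous lists lie farthest to the right (6.88, 7.16 and 5.51) and smooth muscle and enteric neuron lists farthest to the left (-3.93 and -3.77).

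Signalling families beside Wnt were mixed. Of 23 BMP and TGF-β genes 9 were higher and 4 lower (median 0.11), with the ligand Bmp7 (4.33, 6.06 and 9.9 CPM against 53.4, 41.1 and 81.6, 3.12 ± 0.42) and the activin antagonist Fst (4.73 ± 0.74) higher, and the BMP antagonist Chrdl1 (-4.63 ± 0.81) lower. Notch genes were higher for 7 of 13 and lower for 1 (median 1.22), with Notch1 at 35.5, 45.4 and 28.7 CPM against 136, 124 and 96.9 CPM (1.70 ± 0.30). The target Hes1 did not pass (0.06 ± 0.14). Scaled to epithelial genes it did (0.75, adjusted p = 0.013), where the median over all genes was 0.77. In the EGF receptor family 4 of 14 were higher, including the ligands Ereg (1.93 ± 0.76, a call lost in 4 of 6 fits with 1 library left out, adjusted p up to 0.158) and Nrg1 (2.72 ± 0.67), and 4 lower, including Erbb3 (507, 429 and 480.5 CPM against 122, 229.7 and 133, -1.55 ± 0.22). Of 20 glycolysis and hypoxia genes 2 were higher and 9 lower. When scaled to epithelial genes the split became 7 and 1, against 49.0% higher and 9.06% lower over all genes. Higher under both scalings were Pfkfb3 (2.98 ± 0.52), which drives glycolysis through fructose 2,6-bisphosphate, and the lactate exporter Slc16a3 (2.16 ± 0.38). Antimicrobial and acute phase genes were higher for 7 of 17 and lower for 4. Lcn2, which binds bacterial siderophores, went from at most 1.35 to 259, 73 and 254 CPM (7.45 ± 0.90), while Pigr, which carries IgA across the epithelium, fell from 5313, 4687 and 3346 to 498, 1452 and 871 CPM (-2.24 ± 0.35). Reg3b was at 1292 CPM in untreated replicate 3 and at no more than 107 CPM elsewhere, and did not pass. Its direction, lower in the tumours over all 6 libraries, turned without that library (5.84, adjusted p = 0.0717).

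The widest changes among genes averaging at least 5 CPM in the higher group with no overlap between libraries included many with no counts in untreated colon. T, which encodes brachyury, a factor of mesoderm formation and a known Wnt target, had none there and 45, 9.74 and 26.8 CPM in the tumours, at least 713-fold higher against 3 counts over the untreated group. Prss56, a serine protease, was at least 739-fold higher (29.7, 9.28 and 47.7 CPM) and Krt6a at least 1112-fold (9.4, 111 and 15.9 CPM), although Krt6a lost its call whichever of the 6 libraries was left out (adjusted p = 0.0513 to 0.106). With DESeq2, Prss56 (adjusted p = 0.0669) and T (adjusted p = 0.061) did not pass, and Krt6a had no adjusted p. Cyp21a1, the steroid 21-hydroxylase, was at least 183-fold higher (8.18, 5.68 and 7.54 CPM). Defa36, Defa5 and Defa35 were among the 12 as well, with Defa35 at 23.4 CPM in tumour replicate 1 and at most 0.305 CPM in the others, and with a call lost in 4 of 6 fits (adjusted p up to 0.112). Defa36 and Defa35 did not pass with DESeq2 either (adjusted p = 0.0711 and 0.237). In the lower direction Slc30a10, a manganese exporter, read 148, 108 and 191 CPM in untreated colon and 0.135, 0.425 and 0.0381 CPM in the tumours (-9.53 ± 1.11, adjusted p = 3.58e-06). P2ry4, a nucleotide receptor, read 7.2, 4.68 and 4.01 CPM and then at most 0.0387 CPM (-8.24 ± 0.86). Cyp2c55, a cytochrome P450 enzyme, read 273, 363 and 4137 CPM and then 0.777, 6.57 and 3.69 CPM (-8.76 ± 1.84, and -6.44 without untreated replicate 3). The calls of Ugt2b5, Malrd1 and Fabp2 were carried by untreated replicate 3 and were lost without it (adjusted p = 0.506, 0.349 and 0.22). Apoa4 was carried by untreated replicate 1, at 35.1 CPM against 0.187 and 0.12 (-1.92 without it, adjusted p = 0.667).

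The tumours were compared in the same way with KO colon at day 7 of DSS, injured tissue of the same genotype. Day 7 replicates 1, 2 and 3 held Xist at 0.144, 748 and 577 CPM and Ddx3y at 32.2, 0 and 0 CPM. The share of sex in the day 7 comparisons was not tested. Here 8141 of 19056 genes (42.7%) passed, 4170 (21.9%) higher and 3971 (20.8%) lower in the tumours, or 10083 higher and 1357 lower when scaled to epithelial genes. Day 7 against untreated KO colon gave 2403 (12.6%), 1637 (8.59%) higher and 766 (4.02%) lower. It was fitted with all libraries only, so its dependence on untreated replicate 3 was not tested. Every pair of these 3 comparisons shares a group, so only their own values are set side by side. Wnt targets were higher in tumours than at day 7 for 21 of 24 (median 3.79), and at day 7 they were higher than in untreated colon for 3 (median -0.39). Notum read 0.0481, 0 and 0 CPM at day 7 (tumours against day 7, 13.58 ± 0.66), and Axin2 37, 33.3 and 40.3 CPM. Lgr5 read 3.85, 1.79 and 1.5 CPM at day 7, below every untreated and every tumour library. Cell cycle genes showed the other order. At day 7, 23 of 30 were already higher than in untreated colon (median 1.63), and tumours exceeded day 7 for 3 (median -0.01). Mcm7 read 96.9, 71.9 and 76.1 CPM at day 7 and its difference from the tumours did not pass (0.34, adjusted p = 0.163). Ribosome production genes were likewise higher at day 7 for 21 of 22 (median 1.10), with tumours lower than day 7 for 2 and higher for none (median -0.13).

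Paneth genes separated tumours from day 7 as they did from untreated colon, 7 of 10 higher (median 7.79), with 1 higher and 1 lower at day 7 against untreated colon. The gene higher at day 7 was Pla2g2a, at 33.7, 44.6 and 71.9 CPM, between the untreated and the tumour libraries, and the lower one was Mmp7, at 0, 0 and 0.0483 CPM against the 0, 0.0748 and 4.89 CPM of untreated colon. Lyz1 read 2.16, 2.85 and 2.8 CPM at day 7. Matrix proteases were higher in tumours for 21 of 23 (median 2.67), and none was higher at day 7 than in untreated colon. Colonocyte genes were lower in tumours than at day 7 for 22 of 30 (median -2.41) and lower at day 7 than in untreated colon for 2. Smooth muscle genes were lower in tumours for all 17 (median -3.74), and none passed between day 7 and untreated colon (median 0.03). T and NK cell genes were higher in tumours than at day 7 for 11 of 18 and lower at day 7 than in untreated colon for 7.

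**Figure D5:**
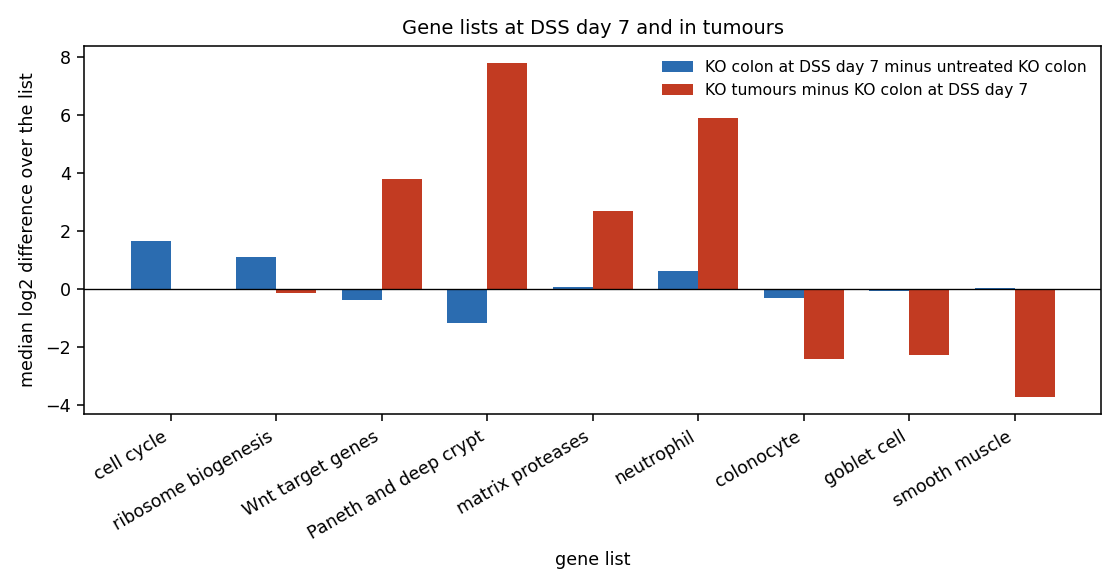
Median log2 difference of 9 gene lists for KO colon at DSS day 7 against untreated KO colon and for KO tumours against day 7, as bars from 0. Cell cycle and ribosome production lists differ at day 7 (1.63 and 1.10) and hardly between day 7 and tumours (-0.01 and -0.13). Wnt target and protease lists have medians near 0 or below at day 7 (-0.39 and 0.06) and high ones between day 7 and tumours (3.79 and 2.67), and the Paneth list is at -1.19 and 7.79. Of the 10 Paneth genes, 1 was called higher and 1 lower at day 7 against untreated colon.

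The genes with the smallest p between tumours and day 7 that are named here kept their calls in every alternative tried. Besides Notum and Prox1 (7.85 ± 0.38, adjusted p = 2.83e-10) they were in the higher direction Slc30a2, Abhd12, Tead2, R3hdml, Spock2, Fam89a, Mdga2 and Erich3. Spock2, a secreted proteoglycan, stood at 1162, 1195 and 2259 CPM in the tumours, 7.31, 7.37 and 6.81 CPM at day 7 (7.75 ± 0.54, adjusted p = 4.69e-08) and 7.6, 6.66 and 5.13 CPM in untreated colon. Slc30a2, a zinc transporter, stood at 206, 129.9 and 194 CPM in the tumours and 0.673, 0.554 and 1.01 CPM at day 7 (7.88 ± 0.48). Tead2, a factor of the Hippo pathway, stood at 131, 78.9 and 97 CPM and 4.57, 2.94 and 4.16 CPM (4.72). Among the lower genes were the muscle genes Des, Cnn1 and Actg2, the mesenchymal factor Hand1, and Usp2, Gstm2, Naprt, Synpo and Anxa11. Des read 747, 647 and 669 CPM at day 7 (-5.95).

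Whether the tumours of KO mice differ from their untreated colon in another way than those of WT mice do was tested as the difference between the tumour effects. No gene of 19056 passed with edgeR (0%), although 1653 had an unadjusted p under 0.05. With DESeq2 the calls were 92, 19 higher and 73 lower. WT tumours against untreated WT colon gave 9290 calls (48.8%; 5251 higher, 27.6%, and 4039 lower, 21.2%) and, for Wnt targets, 23 of 24 higher and 1 lower (median 3.43). The median difference of the tumour effects over the Wnt targets was 0.16. Interferon genes were among those with the smallest p. For Isg15 the difference of the tumour effects was -6.23 (adjusted p = 0.292), with 1.26, 2.45 and 4.98 CPM in untreated WT colon, 43, 6.01 and 63.5 CPM in WT tumours, and in KO mice the values given above. Oas3 (-7.41), Oasl2 (-5.53), Zbp1 (-4.18) and Apol7a (-3.36) had the same adjusted p of 0.292. In the other direction the smallest p belonged to Mtus2 (4.87), Kyat1 (2.02), Erfe (1.33), Mamdc2 (6.17) and Grik3 (4.13), with adjusted p from 0.292 to 0.294.

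The result rests on few libraries. Without untreated KO replicate 3, 14 genes were called higher, among them the mitotic genes Cdc25c, Kif4, Tpx2, Ccnb2 and Nek2 (differences of 2.51 to 3.5, adjusted p = 0.039; named after their values were seen). Of these 14, 1 was on the cell cycle list. Without untreated KO replicate 2, 20 genes were called lower, and without WT tumour replicate 2, 42 were lower and 1 higher, of which 6 and 12 of the lower genes were on the interferon lists. Leaving out KO tumour replicate 1 gave 1 higher gene.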

How the data were processed

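RNA of whole mouse colon or colorectal tumours was extracted with Trizol and made into Illumina libraries, per the labels' protocols. The submitters' processing notes name STAR 2.7.6a, RSEM 1.3.1 and the build GRCm38. Annotation release and strand setting were not given in the sources used here. Each library's gene table, deposited by the authors, holds expected counts, estimated read numbers that need not be whole (11.8% to 12.4% of the values in the 6 libraries), and TPM. TPM as deposited by the authors was used only to compare levels between genes. Expected counts were rounded, and CPM were computed from library sizes multiplied by the TMM scaling factors of the edgeR fit described below.

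All 24 libraries in 8 groups entered 1 edgeR 4.0.16 fit (R 4.3.3, limma 3.58.1), with filterByExpr (minimum count 10, total 15), TMM scaling and robust quasi-likelihood F tests. A gene was called at a Benjamini-Hochberg adjusted p under 0.05 over all 19056 genes. The SE is the absolute log2 difference divided by the square root of F. The design text states 3 biological replicates per group, while cultures, litters or cages are not named, so p-values measure the spread between these libraries. Folds against a group without counts use a floor of 3 counts over that group. Symbols and coordinates come from GENCODE M21 (55227 of 55487 IDs matched) and promoter windows from RefSeq.

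The samples compared, the gene lists and the rules were chosen with earlier results of these data known. Named genes were Axin1; up to 12 per direction with the widest change among called genes averaging at least 5 CPM in the higher group without overlap; for each list its anchors, up to 6 with the smallest p and up to 2 called the other way; up to 10 per direction with the smallest p in the other comparisons, or 5 where fewer than 5 were called; and sex-linked genes. Some genes that this rule picks are not reported here. Alternatives were DESeq2 1.42.0, relative log expression (RLE) size factors, scaling to 10 epithelial genes, no filter, a filter of 1 CPM in 3 libraries, only the groups compared, a Y-linked covariate, a test against a fold change above 2, and each library left out. Leaving out untreated replicate 3 and tumour replicate 2 together was chosen after seeing the data. No alternative was run for day 7 against untreated KO colon or for WT tumours against untreated WT colon. The code was tested on simulated data.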

Additional observations from a re-analysis of the deposited data

How the results depend on the processing

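No paired analysis was possible because the labels carry no replicate numbers that link libraries across groups. For KO tumours against untreated KO colon, scaling to epithelial genes gave 9328 genes higher and 1726 lower, the latter all among the main calls, and 14 genes called in the opposite direction; a test against a fold change above 2 gave 1498 and 1407. Leaving out 1 library gave 4267 to 4799 higher and 3572 to 4288 lower. For every alternative except the epithelial scaling, no gene called in the main fit was called in the opposite direction. For KO tumours against day 7, the epithelial scaling gave 10083 and 1357, the fold test 1520 and 1140, and leaving out 1 library 3329 to 3869 and 3039 to 3786. For the difference between KO and WT tumour effects, DESeq2 called 19 higher and 73 lower, 17 of the latter on the interferon lists, and leaving out 1 library gave 0 to 14 higher and 0 to 42 lower. Among reported genes that the main fit or the alternative called, directions turned for Epcam (0.23), Cldn7 (0.06), Lrig1 (0.08), Ptger4 (0.73) and Slc2a1 (0.07) under epithelial scaling. They turned for Ptger4 (0.49, range with 1 library left out -0.22 to 0.49) without untreated KO replicate 3, for Krt5 (-4.38, range -4.38 to 10.08) without tumour KO replicate 2, and for Krt5 (-3.59) without both of these libraries. Genes that neither fit called are left out of this list even where their direction turned. Examples are Cdh1 (0.25 under epithelial scaling) and Reg3b (5.84 without untreated KO replicate 3). Beyond what the epithelial scaling adds to all genes and the libraries named, the cause was not tested. Axin1 in KO tumours ranged from 99.8% to 110% of untreated KO colon with 1 library left out. Genes with few counts in either group limit what can be called, since 0 counts in 3 libraries allow up to 3.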
